A study of Homo sapiens with 8 samples.

Results

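CAKI1 is a human renal carcinoma cell line that was established from a skin metastasis. Its 2 arrays, of 8 in the series, were set against the 6 arrays of ACHN, CAKI2 and A498, and the genes that kept CAKI1 apart in both treatments were described. The choice of arrays came from the labels and used no measured value. Each of the 4 lines, all labelled as clear cell renal cell carcinoma, gave 1 array of cells exposed to 75 nM A939572 for 24 h and 1 array of DMSO control cells. A939572 inhibits stearoyl-CoA desaturase, and the drug response is not described here. ACHN came from a pleural effusion, and CAKI2 and A498 from kidney tumours. All cells were grown in DMEM with fetal bovine serum, so the comparison concerns cultured lines and not tumours, and each line stands for 1 patient's tumour.

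Clear cell renal carcinoma arises from the tubule epithelium. The developing tubule is patterned by transcription factors such as PAX2, PAX8 and SALL1, and most of these tumours lose the VHL protein, which marks hypoxia-inducible factors for degradation. Tubule cells and carcinoma cells can also secrete chemokines, small proteins that attract leukocytes; the ELR-type CXC chemokines CXCL1, CXCL2, CXCL3, CXCL5, CXCL6 and CXCL8 attract neutrophils through CXCR1 and CXCR2. Many of these genes lie side by side on chromosome 4 and are classical targets of NF-kB.

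A level here is log2(signal + 16) of the authors' scaled intensity after quantile normalization. For each gene, the gap is the distance between the CAKI1 array and the nearest of the 3 other lines within a treatment, taken from the treatment where it was smaller. A gene was called set apart where the gap was at least 1 log2 unit (2-fold). Of 12093 genes tested, 112 were set apart upwards (0.926%) and 126 downwards (1.04%). Without the size limit, CAKI1 lay above all 3 other lines in both treatments for 1886 genes (15.6%) and below them for 1826 (15.1%). The gap exceeded 4-fold for 25 genes upwards and 40 downwards, and 8-fold for 10 and 13.

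The 2 CAKI1 arrays are no independent replicates of the line, so the test compared 1 CAKI1 mean with the 3 line means, with CAKI1 assumed to vary like the other lines. This limma fit called 0 genes higher (0%) and 0 lower (0%) after Benjamini-Hochberg adjustment at 0.05. At an unadjusted p under 0.05 it held 475 genes, 224 higher and 251 lower. The smallest adjusted p was 0.2007, for CXCL6 and CXCL5. An exact test over 4 lines cannot go below p = 0.25. With the 8 arrays taken as separate and treatment as a block, limma called 42 genes higher and 53 lower, and with the line as a random block 6 and 8. A limma fit with the line as a fixed factor measures error from the spread of arrays within lines only. It called 2112 genes higher (17.5%) and 1985 lower (16.4%). All 112 and 126 set-apart genes were among them, but they were chosen on the same arrays, so this adds no support. Unless another fit is named, an adjusted p below comes from this last fit. It speaks for these arrays and not for a population of lines, and no gene named below passed the test on line means. The number of arrays limits the precision: the median SE of a difference was 0.49 log2 units between lines and 0.19 within lines.

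CAKI1 correlated with ACHN at r = 0.89 in DMSO and 0.90 in A939572 over the tested genes, with A498 at 0.86 and 0.87, and with CAKI2 at 0.84 and 0.85. The DMSO and A939572 arrays of CAKI1 correlated at 0.95. These are correlations across genes, which are not independent replicates. The nearest other line was ACHN for 51 of the 112 genes set apart upwards and for 64 of the 126 downwards. The ACTB 3′/5′ intensity ratio, a sign of RNA integrity, was 3.01 in CAKI1 with A939572, against 3.12 to 4.21 in the other lines with A939572. In DMSO it was 2.12 in CAKI1 and 2.13 to 2.33 in the other lines. No leukocyte marker of 5 measured (PTPRC, CD3E, CD14, LAPTM5, TYROBP) reached the level of 6.41, the filter on dim genes, on both CAKI1 arrays. Their mean level was 5.56 to 6.03 in CAKI1 and 5.14 to 5.79 in the other lines. For fibroblasts, 2 of 6 markers (COL1A1 and DCN) did so, with means of 5.75 to 6.32 in CAKI1 and 5.55 to 6.64 in the other lines. The renal tubule factor PAX8 was high in all 4 lines. Among 7 proximal tubule markers, ANPEP, MME and GGT1 reached 6.41 on both CAKI1 arrays, while CUBN and LRP2, the uptake receptors that define that cell, did not.

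**Figure D1:**
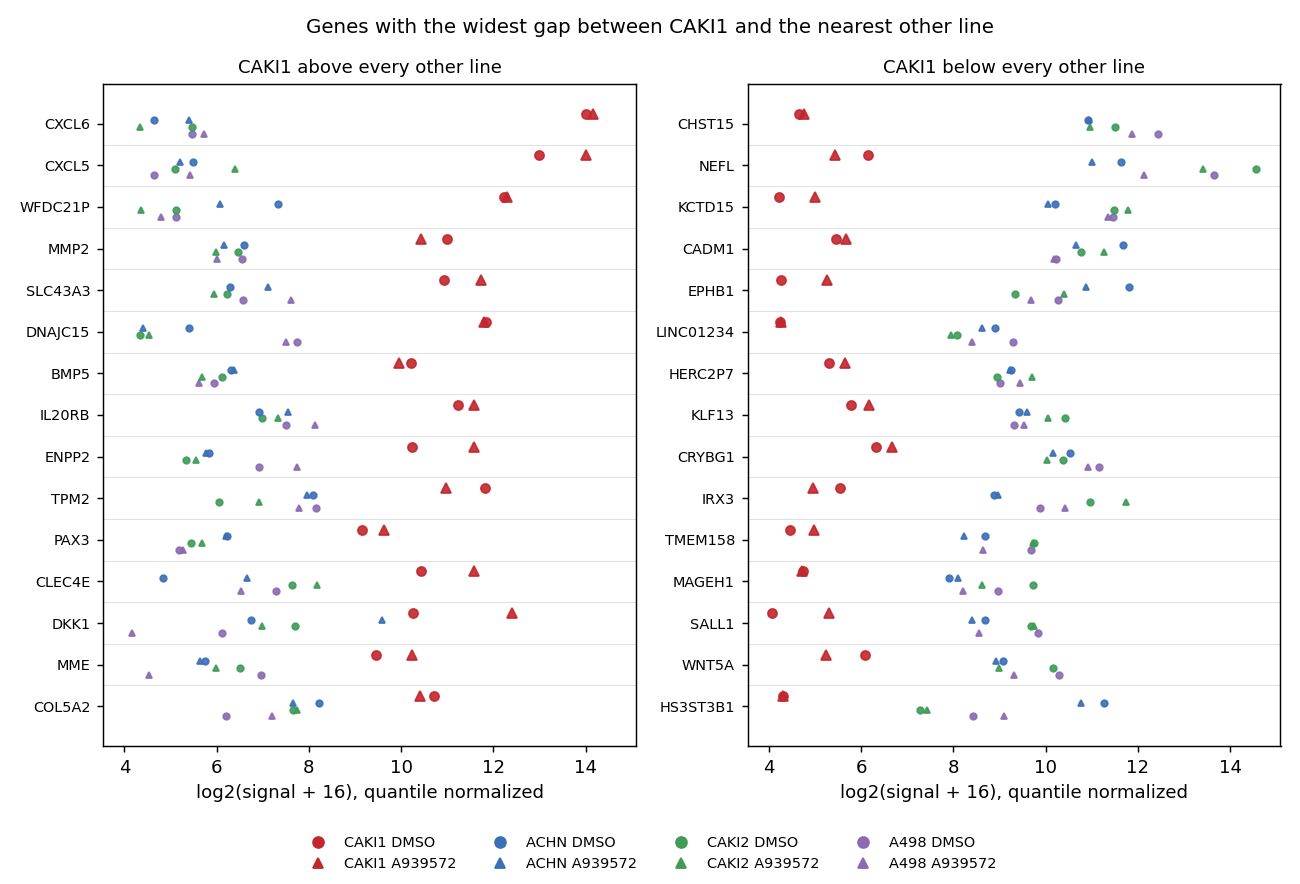
Level of the 15 genes with the widest gap upwards (left) and downwards (right), in log2(signal + 16) after quantile normalization, 1 point per array. Both CAKI1 arrays (red) lie outside the other 6 for every gene shown, by a gap of 8.43 for CXCL6 and 6.18 for CHST15, the first gene of each panel. Levels of different genes come from different probe sets and are not comparable with each other.

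CXC chemokines gave the widest separation of CAKI1. CXCL6 read 13.999 in the DMSO array and 14.15 in the A939572 array of CAKI1, against a lowest value of 4.33, a median of 5.43 and a highest of 5.72 in the 6 arrays of the other lines. CXCL5 read 12.98 and 14.01 in CAKI1, against 4.64, 5.31 and 6.40 in the other lines. All 6 other arrays stayed below the filter level of 6.41 for both genes, so the differences of 8.90 ± 0.52 and 8.12 ± 0.52 log2 units (SE, 1 line against 3) are set against dim signals. The adjusted p was 1.30e-06 for both, and 0.201 in the fit on line means. For CXCL5 the difference was 2.90 when probe sets ending in _x_at or _s_at, which can bind related transcripts, were left out.

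The neighbours on chromosome 4 differed in how far they separated CAKI1. CXCL1 read 13.63 and 15.29 in CAKI1, against 7.33, 9.54 and 13.03 as the lowest, median and highest of the other arrays. Its gap of 1.76 was set by ACHN. CXCL3 read 8.51 and 11.86 in CAKI1, against 6.02, 8.08 and 10.77 in the other lines, a gap of 1.09 within treatments, although the DMSO array of CAKI1 lay within the range of the other 6. CXCL2 read 12.56 and 15.24 in CAKI1, against 7.46, 12.20 and 14.70, with a gap of 0.54, and its difference of 2.09 was 1.17 without CAKI2, 1.36 in the A939572 arrays alone and 1.31 averaged over its probe sets. CXCL8, which encodes interleukin-8, read 12.31 and 15.38 in CAKI1, against 9.52, 12.50 and 15.30, and its gap was 0.08, with a difference of 1.35, or 0.82 without CAKI2. So CXCL6 and CXCL5 were bright in CAKI1 alone, while CXCL2 and CXCL8 were bright in several lines. PF4V1, a platelet factor 4 variant gene between CXCL6 and CXCL1, did not pass the filter on dim genes, and read 8.80 and 8.35 in CAKI1, against 4.11, 4.88 and 5.56 in the other lines. EREG, an EGF receptor ligand gene in the same stretch, did not separate CAKI1, which read 13.64 and 13.68, while CAKI2 read 12.91 and 14.53, ACHN 10.94 and 12.89, and A498, the dimmest line, 5.55 and 6.47.

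**Figure D2:**
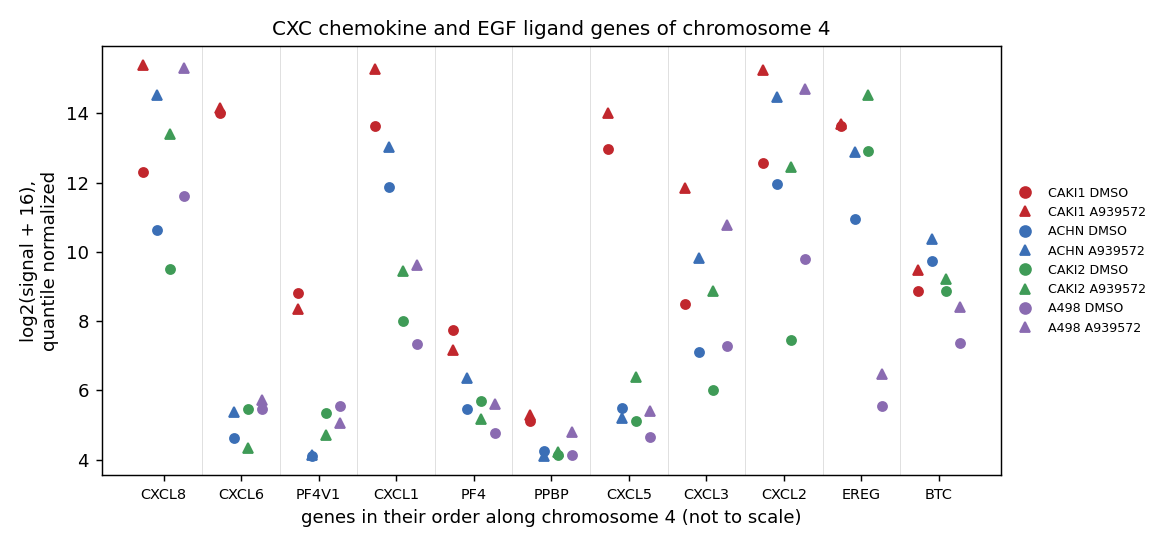
Level of the CXC chemokine and EGF ligand genes in their order along chromosome 4, in log2(signal + 16) after quantile normalization, 1 point per array. CAKI1 (red, leftmost within each gene) stands 8.43 and 7.49 log2 units clear of the nearest line for CXCL6 and CXCL5, and 0.08 for CXCL8. PF4V1, PF4 and PPBP did not pass the filter on dim genes.

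The 6 ELR chemokine genes carry the same short stretch of sequence close to their starts, shown here because the gap between CAKI1 and the other lines was 8.43 for CXCL6 and 0.08 for CXCL8. The 110 bases before each start are given, from RefSeq on GRCh38.p14, 5′ to 3′ on the gene's own strand. The capitals mark the letters GGAATTTCC, a sequence of the kappaB type to which NF-kB binds.
CXCL6 (chr4:73836568-73836677, plus strand): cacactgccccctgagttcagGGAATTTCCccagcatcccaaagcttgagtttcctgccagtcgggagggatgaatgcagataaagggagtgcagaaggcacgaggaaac
CXCL5 (chr4:73998678-73998787, minus strand): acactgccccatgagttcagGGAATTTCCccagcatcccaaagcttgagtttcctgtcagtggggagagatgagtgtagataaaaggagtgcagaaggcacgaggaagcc
CXCL1 (chr4:73869283-73869392, plus strand): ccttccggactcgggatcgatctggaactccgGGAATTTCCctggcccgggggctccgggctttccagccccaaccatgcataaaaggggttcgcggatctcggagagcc
CXCL3 (chr4:74038690-74038799, minus strand): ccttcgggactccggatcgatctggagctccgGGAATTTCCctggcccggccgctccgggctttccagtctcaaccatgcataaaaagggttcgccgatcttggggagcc
CXCL2 (chr4:74099196-74099305, minus strand): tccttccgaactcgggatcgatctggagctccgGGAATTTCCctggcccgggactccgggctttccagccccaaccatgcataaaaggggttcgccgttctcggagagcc
CXCL8 (chr4:73740459-73740568, plus strand): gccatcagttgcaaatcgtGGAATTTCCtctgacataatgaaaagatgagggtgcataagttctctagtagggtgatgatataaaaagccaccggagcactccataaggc

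The motif begins 89 bases before the start in CXCL6, 90 in CXCL5, 78 in CXCL1 and CXCL3, 77 in CXCL2 and 91 in CXCL8. Lined up on it, the CXCL6 and CXCL5 stretches were identical at 101 of 109 bases (92.7%), and those of CXCL1 and CXCL3 at 99 of 110. GGAATTTCC or its reverse complement GGAAATTCC was found in 129 of 27305 promoters of the table (0.472%), each read from 250 bases before to 50 bases after the start. Among tested genes with a promoter it was found in 43 of 9884 (0.435%). It was found in 4 of 80 genes set apart upwards with a promoter, namely CXCL6, CXCL5, CXCL1 and CXCL3, and in 0 of 91 set apart downwards. The letters searched for are those that the ELR chemokine genes above share, so these 4 matches were fixed beforehand. The shares are therefore no test of enrichment. CXCL2 and CXCL8 hold it too, with gaps of 0.54 and 0.08. The match is a description of letters and not a site.

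Single genes with known roles in inflammation or the acute phase were among those that read higher in CAKI1; they were picked after their values were seen and form no tested group. WFDC21P, a transcript named as a whey acidic protein domain pseudogene, read 12.23 and 12.28 in CAKI1, against 4.36, 5.12 and 7.33 in the other lines, a difference of 6.79 ± 0.93. IL20RB, a receptor chain for cytokines of the IL-20 group, read 11.23 and 11.58 in CAKI1, against 6.92, 7.41 and 8.14. C3, the central complement component, read 12.47 and 12.56 in CAKI1, against 6.75, 7.27 and 10.31, with A498 as the nearest line. The 2 CAKI1 arrays were clear of all others for these 3 genes, which largely follows from how they were picked. Over all tested genes, CAKI1 lay above all other lines in both treatments for 15.6%. CLEC4E, a C-type lectin receptor, read 10.43 and 11.58, against 4.83, 6.97 and 8.17, and its difference of 4.16 was 1.76 without the _x_at and _s_at probe sets. CEBPD, a transcription factor of the acute phase response, read 12.00 and 12.35, against 8.37, 9.87 and 10.71. IL1A, which encodes interleukin-1 alpha, read 8.73 and 10.62, against 4.22, 4.88 and 9.0024, so the DMSO array of CAKI1 lay below the brightest A939572 array, that of CAKI2. Its difference of 3.93 was 0.18 without the _x_at and _s_at probe sets and 0.22 with an offset of 1. LCN2, an iron-binding protein released by injured tubules, read 8.13 and 11.57, against 6.47, 7.07 and 9.33, so its DMSO array in CAKI1 lay within the range of the others, and its difference of 2.37 was 1.37 in the DMSO arrays alone.

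Of 34 tested cytokine and chemokine genes, 6 were set apart upwards and 0 downwards, beside 0.926% and 1.04% of all tested genes. Of the 6, at least CXCL6, CXCL5 and IL1A passed the filter on dim genes only through CAKI1. Their means in the other lines were 5.17, 5.38 and 5.74, below the filter level. The count of 6 therefore depends in part on the CAKI1 arrays having entered the filter. CAKI1 lay beyond all other lines for 14 upwards and 2 downwards, beside 15.6% and 15.1% of all tested genes. The fit with line as a fixed factor called 17 higher (50%) and 5 lower (14.7%), beside 17.5% and 16.4% of all tested genes. The median difference of the 34 was 0.72 log2 units, beside 0.0085 over all tested genes. Against ACHN and CAKI2 the median was 1.06 and 1.18, and against A498 it was -0.02. IL6 had a gap of 0.53 and CCL20, which attracts CCR6-bearing lymphocytes, one of 0.39; their differences of 2.44 and 3.80 carried SEs of 1.29 and 1.74. Without CAKI2 the difference of IL6 was 1.49. CCL2, the monocyte chemokine, went the other way, with 4.25 and 4.24 in CAKI1, against 4.44, 7.43 and 11.80 in the other lines. It was bright in A498, and without A498 its difference of -4.01 was -2.26.

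Some transcription factors of the kidney lineage, picked after their values were seen, were among the genes lowest in CAKI1. SALL1, a zinc finger factor of the nephron progenitor, read 4.06 and 5.31 in CAKI1, against 8.40, 9.19 and 9.84 in the other lines. IRX3, an Iroquois factor of the tubule, read 5.54 and 4.95, against 8.87, 10.15 and 11.73. POU3F3, which acts in the loop of Henle and distal tubule, read 8.47 and 7.57 in CAKI1, against 9.56, 11.21 and 12.98. For all 3, both CAKI1 arrays lay below every other array, which largely follows from how they were picked. Over all tested genes, CAKI1 lay below all other lines in both treatments for 15.1%. PAX2 read 5.88 and 5.93 in CAKI1, against 7.11, 7.97 and 9.49, and TBX3, a T-box factor, read 5.06 and 5.98, against 6.64, 7.94 and 9.12. PAX8, the relative of PAX2, also read lowest in CAKI1, but by a gap of only 0.17 log2 units, with 11.97 and 12.13 in CAKI1, against 12.14, 12.46 and 13.02, a difference of -0.46 ± 0.32. Of 16 tested renal lineage factors, 5 were set apart downwards and 0 upwards, and CAKI1 lay below all other lines for 6. IRX5 had a gap of 0, and the tubule marker LHX1 read 7.41 and 5.89 in CAKI1, within the range of the other lines. The fit with line as a fixed factor called 9 lower (56.2%) and 1 higher (6.25%), beside 16.4% and 17.5% of all tested genes. The median difference of the 16 was -0.65. Averaged over the probe sets of a gene instead of read from the brightest, the differences of PAX2, POU3F3 and TBX3 were -1.33, -1.24 and -0.78, in place of -2.27, -3.16 and -2.49. TSHZ3, a ureter factor, read 5.98 and 6.31 in CAKI1, against 8.22, 8.66 and 9.19.

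Factors of other embryonic lineages went both ways; no list of them was tested, and those named were picked after their values were seen. The first 6 read higher in CAKI1 and the other 4 lower. PAX3, a factor of neural crest and muscle precursors, read 9.16 and 9.62 in CAKI1, against 5.18, 5.57 and 6.22 in the other lines. Its mean in the other lines was 5.67, below the filter level of 6.41, so it passed the filter only through CAKI1. The same held for ISL1, TBX15 and ALX1, with means of 5.99, 6.29 and 5.90 in the other lines. ISL1, a factor of motor neurons and heart progenitors, read 9.52 and 8.64, against 4.31, 6.22 and 6.79. TBX15, a limb and adipose factor, read 8.34 and 8.56, against 5.47, 6.41 and 6.95. ALX1, a craniofacial homeobox factor, read 9.39 and 9.33, against 4.42, 5.09 and 8.34, with ACHN close behind. TWIST1, a mesoderm factor known for its part in epithelial-mesenchymal transition, read 10.28 and 9.59, against 4.28, 4.76 and 5.16, and ZIC1, a neural and somite factor, read 9.27 and 9.99, against 4.11, 4.24 and 5.68. TWIST1 and ZIC1 did not pass the filter on dim genes because the other 3 lines lay so low, and have no test. For each of these 6 both CAKI1 arrays were brighter than all others, which largely follows from how they were picked. With the mean of its probe sets, the difference of PAX3 was 1.82 in place of 3.72. FOXF2, a forkhead factor of gut and craniofacial mesenchyme, read 5.77 and 5.35 in CAKI1, against 8.27, 8.91 and 10.01 in the other lines, and TFAP2C, a factor of ectoderm and placenta, read 4.85 and 4.69, against 6.96, 9.18 and 9.64. EN2, a factor of the midbrain and hindbrain, read 6.23 and 5.29, against 7.25, 8.12 and 8.82. POU3F2, a neural factor that did not pass the filter on dim genes, read 4.17 and 4.19, against 5.57, 6.24 and 7.15, and its difference of -2.08 ran from -0.94 with an offset of 64 to -4.28 with an offset of 1. For these 4 both CAKI1 arrays lay below all others, which again largely follows from the choice. Over all tested genes, CAKI1 lay above all other lines in both treatments for 15.6% and below them for 15.1%. PAX3 and PAX2 belong to 1 gene family, and CAKI1 was the brightest line for the first and the dimmest for the second.

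**Figure D3:**
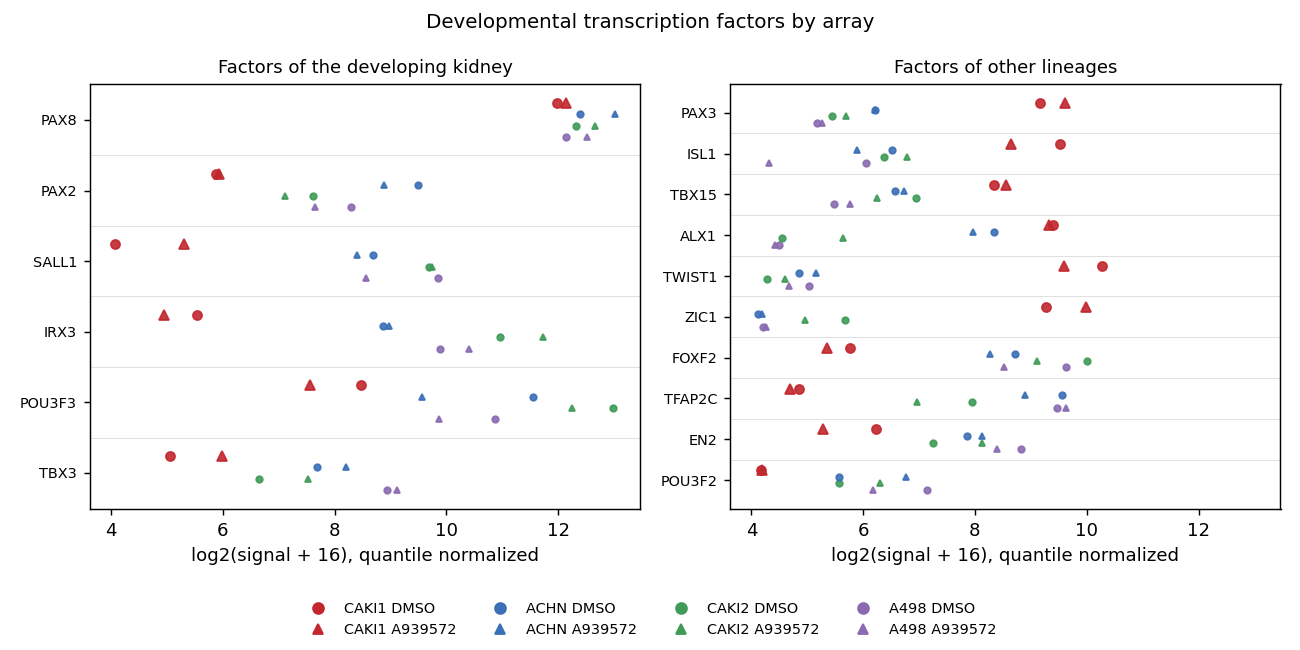
Level of developmental transcription factors in log2(signal + 16) after quantile normalization, 1 point per array. Kidney factors (left), picked after their values were seen, lie lower in both CAKI1 arrays (red) than in the other lines. The gap was 3.33 for IRX3, 1.18 for PAX2 and 0.17 for PAX8. CAKI1 lay below all other lines for 6 of 16 tested renal lineage factors. Factors of other lineages (right), picked after their values were seen, lie higher for 6, with a gap of 4.43 for TWIST1 and 1.06 for ALX1, and lower for 4, with a gap of 2.91 for FOXF2 and 1.02 for EN2.

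Among secreted regulators and receptors of WNT and BMP signalling, single genes were set apart in both directions. BMP5, a bone morphogenetic protein, read 10.22 and 9.94 in CAKI1, against 5.62, 6.03 and 6.37 in the other lines. All 6 other arrays lay below the filter level of 6.41, so BMP5 passed the filter only through CAKI1. DKK1, a secreted WNT inhibitor, read 10.26 and 12.39, against 4.17, 6.87 and 9.58. DKK3, its relative, read 14.09 and 13.58, against 10.49, 11.80 and 12.51. FZD2, a WNT receptor, read 11.67 and 11.01, against 7.29, 9.82 and 10.62, and its difference of 2.05 was 1.18 without CAKI2, the dimmest line. WNT5A, a ligand of non-canonical WNT signalling, was low, with 6.08 and 5.25 in CAKI1, against 8.93, 9.19 and 10.29. These 5 were the set-apart genes among 44 tested members of the WNT, BMP and TGF-beta pathways, 4 upwards and 1 downwards, and the list's median difference was -0.27. The fit with line as a fixed factor called 8 of the 44 higher (18.2%) and 7 lower (15.9%), near the 17.5% and 16.4% over all tested genes. CYP26B1, which degrades retinoic acid, another embryonic signal, read 4.19 and 5.64 in CAKI1, against 8.03, 9.07 and 10.58, and its difference of -4.25 was -2.07 averaged over its probe sets.

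Some single genes of the matrix and cytoskeleton, picked after their values were seen, read higher in CAKI1. MMP2, a gelatinase, read 11.0004 and 10.42 in CAKI1, against 5.98, 6.30 and 6.60 in the other lines, whose arrays of 1 treatment lay close together. Its difference of 4.42 ± 0.44 was 1.61 averaged over its probe sets. COL5A2 and COL6A3, fibrillar and microfibrillar collagen chains, had differences of 3.12 ± 0.65 and 4.10 ± 1.06. ABI3BP, a matrix protein, read 9.91 and 10.15, against 5.38, 5.95 and 7.51, and its difference of 3.80 was 1.96 averaged over its probe sets. ENPP2, which encodes autotaxin, the enzyme that makes lysophosphatidic acid, read 10.24 and 11.59, against 5.34, 5.81 and 7.75. TPM2, a tropomyosin, read 11.81 and 10.97, against 6.05, 7.87 and 8.16, and its difference of 3.90 was 1.43 with the mean of its probe sets. Of 26 tested collagens and laminins, 2 were set apart upwards and 1 downwards, with a median difference of -0.03. The fit with line as a fixed factor called 5 higher (19.2%) and 5 lower (19.2%), near the 17.5% and 16.4% of all tested genes. Of 23 tested mesenchymal state genes, 1 was set apart upwards (MMP2) and 0 downwards, with a median of 0.33. The same fit called 9 of the 23 higher (39.1%) and 2 lower (8.7%). No integrin of 13 tested had CAKI1 beyond all other lines in both treatments, beside 15.6% above and 15.1% below of all tested genes.

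Several enzymes and carriers of sulfated glycans read low in CAKI1. CHST15, which adds sulfate to chondroitin sulfate E, read 4.66 and 4.75 in CAKI1, against 10.91, 11.23 and 12.43 in the other lines, the widest gap downwards. Its difference was -6.73 ± 0.61, and -3.92 averaged over its probe sets. HS3ST3B1, a heparan sulfate 3-O-sulfotransferase, read 4.31 and 4.30, against 7.27, 8.76 and 11.26, and its difference of -4.74 was -2.002 averaged over its probe sets. Its chromosome 17 relative HS3ST3A1 read 4.15 and 5.19, against 6.50, 11.09 and 11.71, with A498 the nearest. GPC4 and GPC1, glypicans that carry heparan sulfate at the cell surface, had differences of -3.11 ± 0.96 and -2.99 ± 0.68. That of GPC4 was -1.998 with an offset of 64, and that of GPC1 was -1.68 in the A939572 arrays alone. These 5 genes were grouped after their values were seen, and no test of them as a group was made.

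Single genes of neurons and of cell adhesion were among those that read lowest in CAKI1. The 26 tested cadherins and epithelial junction genes, however, had a median difference of 0.18. The fit with line as a fixed factor called 10 higher (38.5%) and 5 lower (19.2%), beside 17.5% and 16.4% of all tested genes. NEFL, the light neurofilament subunit, read 6.16 and 5.43 in CAKI1, against 11.0004, 12.77 and 14.56 in the other lines. CADM1, a homophilic adhesion protein, read 5.46 and 5.67, against 10.18, 10.71 and 11.67. EPHB1, an ephrin receptor, read 4.26 and 5.26, against 9.34, 10.34 and 11.80. KCTD15, an inhibitor of neural crest formation in zebrafish, read 4.22 and 5.01, against 10.05, 11.41 and 11.78. These 4 genes were named for their wide gaps downwards, of 5.48, 4.51, 4.42 and 5.04. That both CAKI1 arrays lay below all others follows from this choice. Averaged over the probe sets of each gene, the differences of CADM1, EPHB1 and KCTD15 were -2.24, -3.27 and -3.11, in place of -5.23, -5.63 and -6.44. NLGN1, a synaptic adhesion protein, read 6.22 and 5.61 in CAKI1, against 7.47, 8.45 and 9.71. STMN3, a microtubule regulator of neurons, read 8.22 and 7.28, against 9.30, 10.34 and 11.61. Of 18 tested neuronal and neuroendocrine genes, 2 were set apart downwards and 0 upwards. The fit with line as a fixed factor called 10 lower (55.6%) and 4 higher (22.2%), beside 16.4% and 17.5% of all tested genes. The median difference of the 18 was -1.01, with -2.06 against CAKI2, -0.44 against A498 and -0.22 against ACHN.

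KLF13, a Krüppel-like factor, and HERC2P7, a pseudogene transcript, both on chromosome 15, read 5.77 and 6.16, and 5.29 and 5.64, in CAKI1. The lowest values in the other lines were 9.31 for KLF13 and 8.94 for HERC2P7. Both values depend on the choice of probe set. Without _x_at and _s_at probe sets the difference of KLF13 was 0.17 in place of -3.75, and averaged over probe sets that of KLF13 was -1.31 and that of HERC2P7 was -1.16 in place of -3.80.

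Surface enzymes of the proximal tubule were split. MME, which encodes neprilysin, read 9.46 and 10.23 in CAKI1, against 4.52, 5.86 and 6.97 in the other lines. ANPEP, which encodes aminopeptidase N, read 10.85 and 10.16, and the 2 arrays of A498 read 10.71 and 10.32, so its difference of 3.82 ± 2.55 covers a gap of 0. It was 5.74 without A498 and 0.08 without the _x_at and _s_at probe sets. SLC7A7, a cationic amino acid transporter subunit, read 9.97 and 8.48 in CAKI1, against 4.65, 6.10 and 7.52, and SLC16A9, a carnitine transporter, had a difference of -1.64 ± 0.51. Of 19 tested proximal tubule markers, 2 were set apart upwards and 1 downwards, beside 0.926% and 1.04% of all tested genes. With line as a fixed factor, limma called 3 higher (15.8%) and 6 lower (31.6%), beside 17.5% and 16.4% of all tested genes. The median difference of the 19 was -0.39.

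Among surface ligands of T cell and NK cell receptors, 3 genes picked after their values were seen read lower in CAKI1. ULBP2, a ligand of the activating receptor NKG2D, read 6.05 and 6.82 in CAKI1, against 9.15, 9.87 and 10.37 in the other lines. NCR3LG1, which encodes B7-H6, the ligand of the activating receptor NKp30, read 7.10 and 7.80, against 9.20, 9.70 and 10.17. CD274, which encodes the inhibitory ligand PD-L1, read 7.06 and 8.20, against 8.66, 9.63 and 10.22. For none of the 3 did the CAKI1 arrays overlap those of the other lines, which largely follows from this choice. Over all tested genes, CAKI1 lay below all other lines in both treatments for 15.1%. The 26 tested antigen presentation genes did not share a direction, with a median difference of -0.01. The 2 set apart, ULBP2 and CD274, lay downwards, while CAKI1 lay beyond all other lines for 6 upwards and 3 downwards. The fit with line as a fixed factor called 7 higher (26.9%) and 4 lower (15.4%), beside 17.5% and 16.4% of all tested genes. IFNLR1, the receptor chain for type III interferon, read 4.46 and 4.51, against 5.65, 7.91 and 8.35, and its difference of -2.97 was -1.29 averaged over its probe sets and -1.73 with an offset of 64. Among 45 tested interferon-stimulated genes, 0 were set apart in either direction, beside 0.926% upwards and 1.04% downwards of all tested genes. CAKI1 lay above all other lines for 2 of them and below for 7. With line as a fixed factor, limma called 9 higher (20%) and 13 lower (28.9%). Their median difference was -1.25 against A498, 0.18 against CAKI2 and 0.22 against ACHN. MX1, an antiviral GTPase, had a difference of -3.58 ± 2.40, and one of -1.93 without A498.

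The hypoxia pathway targets EGLN3 and CA12, picked after their values were seen, were low in CAKI1 and in ACHN alike. EGLN3, a prolyl hydroxylase that is itself a target of hypoxia-inducible factors, read 4.65 and 5.28 in CAKI1, against 6.39 and 5.76 in ACHN, 11.34 and 10.46 in CAKI2, and 10.47 and 8.50 in A498. CA12, a carbonic anhydrase, read 8.53 and 8.46 in CAKI1, against 9.0045 and 8.18 in ACHN, 14.60 and 14.31 in CAKI2, and 13.90 and 12.86 in A498. Of 36 tested VHL and HIF axis genes, 0 were set apart, and the fit with line as a fixed factor called 7 higher (19.4%) and 10 lower (27.8%), beside 17.5% and 16.4% over all tested genes. Their median difference was 0.14 against ACHN, -0.68 against CAKI2 and 0.16 against A498. The members with the smallest p in the fit on line means, BHLHE41 and ARNT2, had differences of 1.41 ± 0.44 and -1.72 ± 0.54. That of BHLHE41 was 0.11 without the _x_at and _s_at probe sets, and that of ARNT2 was -1.12 with an offset of 64. HIF1A, VHL and EPAS1, which encodes HIF-2 alpha, had differences of 0.00 ± 0.25, -0.32 ± 0.42 and 0.84 ± 0.65.

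In lipid metabolism, ACSL5, an acyl-CoA synthetase, read 8.12 and 8.46 in CAKI1, against 4.65, 6.41 and 6.71 in the other lines. FABP6, a bile acid binding protein, read 4.54 and 4.40, against 5.61, 7.71 and 9.41, and its difference of -3.21 was -1.35 averaged over its probe sets. CPT1A, which admits fatty acids into mitochondria, read 6.75 and 6.03, against 8.82, 9.39 and 10.24, but its 1 other probe set above the filter level had a difference of the opposite sign, and the difference of -3.02 was -1.36 averaged over its probe sets. The elongase ELOVL6 had a difference of -2.27 ± 0.84 and a gap of 0.94 downwards. The drug's target SCD and its relative SCD5 had differences of -0.15 ± 0.42 and -0.07 ± 0.48, and 3 other probe sets of SCD had the opposite sign. Of 20 tested genes of fatty acid synthesis and desaturation, 1 was set apart upwards, and of 33 of lipid uptake, storage and oxidation, 2 downwards. Over all tested genes the shares were 0.926% upwards and 1.04% downwards. With line as a fixed factor, limma called 6 of the 20 higher (30%) and 6 lower (30%). It called 5 of the 33 higher (15.2%) and 9 lower (27.3%), beside 17.5% and 16.4% of all tested genes.

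**Figure D4:**
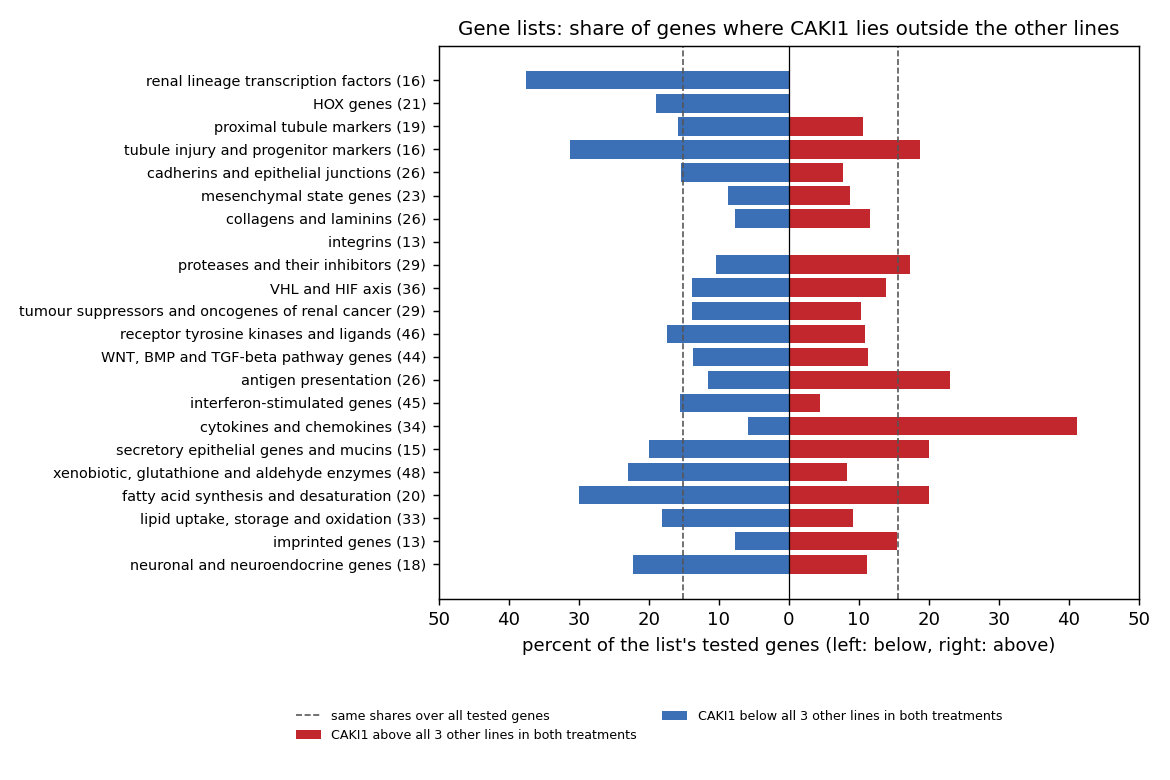
Share of each list's tested genes, in percent, for which CAKI1 lay above (red) or below (blue) all 3 other lines in both treatments; the number tested is in brackets and the dashed lines give the shares over all 12093 tested genes, 15.6% above and 15.1% below. Cytokines and chemokines reach furthest above, with 14 of 34, and renal lineage factors furthest below, with 6 of 16.

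Single genes outside these groups also marked CAKI1. SLC43A3, a purine nucleobase transporter, read 10.94 and 11.73 in CAKI1, against 5.95, 6.43 and 7.62 in the other lines. DNAJC15, a mitochondrial cochaperone, read 11.83 and 11.79, against 4.34, 4.97 and 7.74, and its difference of 6.16 was 3.30 averaged over its probe sets. KITLG, the ligand of the receptor KIT, had a difference of -1.52 ± 0.37, and one of -0.88 averaged over its probe sets. GSTP1, a glutathione transferase, was bright in ACHN too, with 13.21 and 13.03 in CAKI1, 13.03 and 12.12 in ACHN, and at most 6.76 in CAKI2 and A498. STIP1, an HSP90 cochaperone, read 12.52 and 12.47 in CAKI1, against 10.35, 10.79 and 10.81, a narrow range in the other lines.

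The median difference lay more than 0.2 log2 units from 0 for 10 chromosomes. On chromosome 11 the median difference over 678 tested genes was 0.41 log2 units, and 76.1% of them were higher in CAKI1; the medians against ACHN, CAKI2 and A498 were 0.36, 0.43 and 0.38. On chromosomes 8 and X the median was 0.34, on chromosome 5 it was 0.33, on chromosome 3 it was 0.24 and on chromosome 10 it was 0.23. On chromosome 21 it was -0.55 over 118 genes, with -0.31, -0.69 and -0.66 against ACHN, CAKI2 and A498. Chromosomes 9, 22 and 7 had medians of -0.41, -0.36 and -0.26. The sign was the same against each of the 3 lines on these 10 chromosomes. Genes set apart upwards made up 12 of 447 tested genes on chromosome 8 (2.68%), 4 of 183 on chromosome 18 (2.19%) and 13 of 678 on chromosome 11 (1.92%), beside 0.926% over all chromosomes. Chromosome 4 held 7 of 470 (1.49%), of which CXCL6, CXCL5, CXCL1 and CXCL3 are 4, and its median difference was -0.09. Copy number was not measured, and its part in these medians was not tested.

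**Figure D5:**
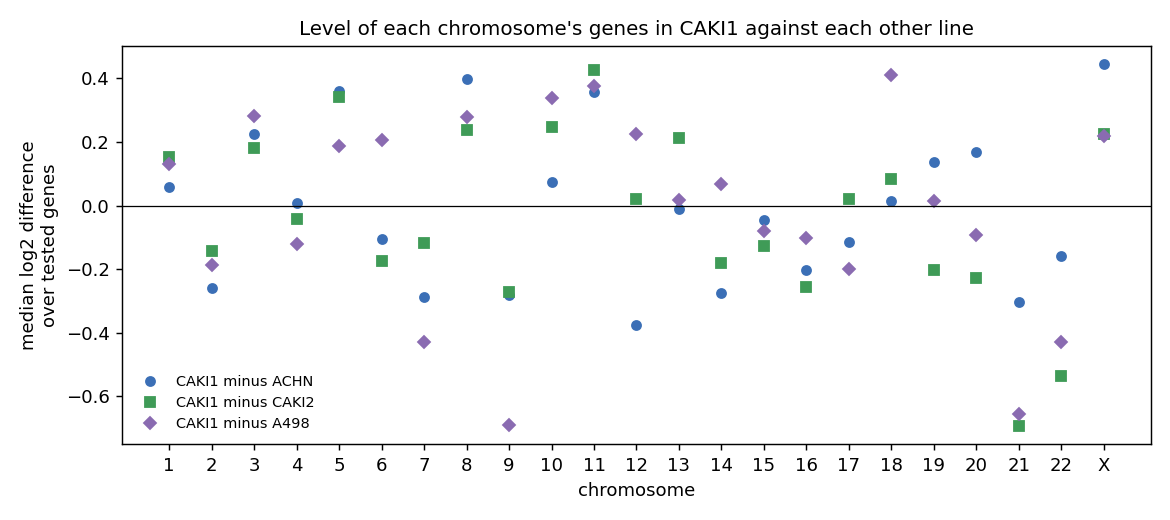
Median log2 difference over the tested genes of each chromosome, CAKI1 minus ACHN, CAKI2 and A498, 1 point per line compared. Chromosome 11 lies above 0 and chromosomes 9, 21 and 22 below it against all 3 lines, while chromosome 12 runs from -0.38 against ACHN to 0.23 against A498.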

How the data were processed

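Per the labels, total RNA of the 4 lines was hybridised to 1-colour Affymetrix arrays. The authors deposited linear intensities, each array scaled to a trimmed mean of about 500; the summary method is not given in the sources used here. Of 54675 probe sets, 62 controls were left out, 41091 had 1 gene symbol, 1801 several and 11721 none; symbols were updated through gene identifiers for 41037. The deposited intensities became log2(signal + 16), quantile normalized because array medians differed by over 0.1. The brightest probe set stood for a gene, and 12093 of 19775 genes with a mean of at least 6.41, the median of probe set means, were tested with limma 3.58.1 (eBayes with trend) in R 4.3.3 and described with pandas 2.3.3 in Python 3.11.15. Each group of line and treatment is 1 array, and nothing in the labels gives the number of cultures behind it.

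Named genes are the 15 with the widest gap each way, up to 2 members per list with the smallest p, SCD, SCD5, VHL, HIF1A and EPAS1, and further genes chosen after their values were seen. Members, lists and comparisons were chosen with earlier results of these data known. Alternatives changed normalization, offset, filter, probe set rule, trend, unit of replication, treatment and the lines compared. The fit on line means was tested on simulated data in which the 2 arrays of a line were identical. The other fits were not tested in this way.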

Additional observations from a re-analysis of the deposited data

How the results depend on the processing

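The counts of genes called higher and lower in the fit on line means were 0 and 0 under every alternative of normalization, offset, filter, probe set, trend, treatment or lines compared, with 289 to 839 genes at an unadjusted p under 0.05. They changed only with the unit of replication: 42 and 53 with 8 separate arrays, 6 and 8 with the line as a random block, 2112 and 1985 with the line as a fixed factor. The 112 and 126 genes set apart upwards and downwards became 73 and 73 averaged over probe sets, 50 and 45 with a stricter filter, 214 and 285 in DMSO alone and 206 and 328 in A939572 alone. Without a filter 172 were set apart upwards, and with an offset of 64 there were 83 downwards. Leaving out 1 other line gave 216 to 336 upwards and 201 to 362 downwards, the most without ACHN. A filter on the brightest line, chosen after seeing the data, gave 166 and 138.

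Of 139 named genes, 12 changed sign at least once, 1 of them, KLF13, set apart. Leaving out 1 other line gave -1.266 to 0.671 for COL1A1, with 0.187 without ACHN, -0.734 to 0.64 for AFP, -1.914 to 0.205 for GATA3, -0.643 to 0.103 for PECAM1, -0.086 to 0.086 for HIF1A, -0.429 to 0.003 for SCD and -0.204 to 0.024 for SCD5. In these ranges the other side of 0 was reached without A498 for COL1A1, AFP, SCD and SCD5 and without CAKI2 for GATA3, PECAM1 and HIF1A. COL1A1 gave 0.038 in DMSO alone, AFP gave 0.398 in A939572 alone, and HIF1A gave -0.309 there. Averaged over probe sets, COL1A1, SCD and VHL gave 0.052, 0.146 and 0.036. SCD gave 0.024 with median centring, and without _x_at and _s_at probe sets ITGAM, KRT7, VHL, CFB and KLF13 gave 0.011, 0.013, 0.391, -0.221 and 0.166. The cause was not tested. Detection calls were not used here, and 75 of the 126 genes set apart downwards had both CAKI1 arrays below 6.41, so the size of those differences is limited by dim signal. The filter used the mean of all 8 arrays, so genes set apart upwards could pass it only through CAKI1. Beside those named above, these include WFDC21P, DNAJC15, MME, COL6A3, ENPP2, MMP2 and ABI3BP. Their means in the other lines were 5.47, 5.65, 5.89, 5.69, 6.20, 6.29 and 6.24.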

Other observations

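Genes that did not pass the filter on dim genes added 60 to the genes set apart upwards and 17 to those set apart downwards. CYTL1, a secreted cytokine-like protein on chromosome 4, read 10.68 and 9.75 in CAKI1, against 4.24, 4.33 and 5.80 as the lowest, median and highest of the other arrays. IGF2BP1, an RNA-binding protein of fetal tissue, read 8.30 and 8.36 in CAKI1, with at most 5.93 in the other lines. HBE1, the embryonic epsilon globin, read 9.39 and 9.90 in CAKI1, with at most 5.85 in the other lines. PGR, the progesterone receptor, read 7.70 and 6.99, with at most 5.63 in the other lines. Among these dim genes, zinc finger genes of chromosome 19 recurred. Of 234 measured genes with a ZNF symbol on that chromosome, 9 were set apart upwards, 8 of them dim. Only 1, ZNF506, was set apart downwards, and it had passed the filter. On other chromosomes the counts were 1 and 3 of 268, and over all 19775 measured genes 172 and 143. ZNF404 read 7.29 and 7.47 in CAKI1, with at most 5.46 in the other lines, and ZNF702P read 8.40 and 8.82, with at most 6.76. Their sequences are alike, so probe sets may share signal, which was not tested, and the median difference over the 234 was 0.08.

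Runs of neighbouring genes moved together in several places. On chromosome 8, all 15 tested genes between SNAI2 and UBXN2B were higher in CAKI1 than in each of the 3 other lines, with a median difference of 1.12, and CAKI1 lay beyond all other arrays of the same treatment for 13. The stretch holds LYN, a Src-family kinase, PLAG1, a zinc finger oncogene, and CHCHD7. On chromosome 11, 13 of 15 genes between PGM2L1 and THAP12 were higher, with a median of 1.08. On chromosome 9, 13 of 15 genes between SLC31A2 and COL27A1 were lower, with a median of -0.98, and on chromosome 7, 13 of 15 between IGFBP3 and VOPP1, with a median of -1.12. These windows were chosen for their medians after the values were seen, and copy number was not measured.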
